A study of Mus musculus with 8 samples.

Results

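The transcripts of the mitochondrial genome were taken as all rows that the deposited table of normalized counts places on the mitochondrial chromosome, 25 of 30387 genes. By Ensembl biotype they are 9 protein-coding genes, 2 ribosomal RNA (rRNA) genes and 14 transfer RNA (tRNA) genes. The values are from white adipocytes isolated from epididymal white adipose tissue of male mice, with 2 libraries, each from a separate mouse, in each of 4 groups. Ad-Yap/Taz-KO mice carry floxed alleles of Yap and Taz that Cre deletes under the adiponectin (Adipoq) promoter, which is active in adipocytes, and wild-type (WT) mice are littermates, whose alleles at Yap and Taz are not given for this line in the sources used here. Both genotypes were fed normal chow, called standard diet (SD), or high-fat diet (HFD) for 4 weeks. By the series' design text the diets began at week 5 of age, while the general methods name week 6, and which holds for these mice was not settled here. The comparisons ask how loss of YAP and TAZ, co-activators of the Hippo pathway, and how diet change the RNA of adipocytes. Normalized counts are read counts that the authors divided by a single factor for each library, so that they compare a gene between libraries but not genes of different length.

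The circular mitochondrial genome is read from both strands as long precursor RNAs, mostly from the strand that gives the rRNAs and nearly all mRNAs. The tRNAs stand between the longer genes and are cut out, which frees the mRNAs and rRNAs on either side. The mRNAs encode core subunits of respiratory complexes I, III and IV and of the ATP synthase (complex V), whose other subunits come from nuclear genes. Complex II has nuclear-encoded subunits only. White adipocytes have fewer mitochondria than brown adipocytes, and use them for fatty acid and lipid metabolism.

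GENCODE vM21 (GRCm38) lists 37 genes on this chromosome, 13 protein-coding, 2 rRNA and 22 tRNA genes, and the positions of all 25 rows matched it. The deposited table had no row for 12 of them, the protein-coding genes mt-Co2, mt-Atp8, mt-Atp6 and mt-Nd4l and 8 tRNA genes. It lists no gene that is at 0 in all 8 libraries. Among the rows, mt-Co3 (a complex IV subunit) had 1 normalized count in Ad-Yap/Taz-KO SD library 1 and 0 in the other 7 libraries, and mt-Nd3 (complex I) had 2 in that library and 0 in the others. A value of 0 allows up to 3 reads, which is 2.39 to 3.40 normalized counts depending on the library. These low values stand between genes with high counts, and were therefore set against sequence shared with the nuclear genome. The start of mt-Nd3 (chrM:9459-9533, + strand) and of its nuclear copy Gm28438 (chr1:24613045-24613119, - strand) are shown because 1 base, in capitals, separates them.
mt-Nd3: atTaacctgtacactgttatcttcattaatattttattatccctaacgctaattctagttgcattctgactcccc
Gm28438: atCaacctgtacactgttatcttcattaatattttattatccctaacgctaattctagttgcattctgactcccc
Over the 345 bases compared, 344 were identical, and the difference was T3C, with the mitochondrial base first and position 3 counted from the first base of mt-Nd3. The authors left out reads that aligned to several regions, so a read that matches both copies is counted for neither.

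Of the windows of 75 bases, the longest read, 709 of 710 in mt-Co3, 607 of 610 in mt-Co2, 604 of 607 in mt-Atp6, 220 of 223 in mt-Nd4l and 268 of 274 in mt-Nd3 occurred without a mismatch in an annotated nuclear transcript. Their nuclear copies lie side by side in a stretch of chromosome 1 (chr1:24611535-24616197, - strand), and Gm28437 (mt-Co3), Gm28661 (mt-Co2), Gm10925 (mt-Atp6) and Gm10222 (mt-Nd4l) were identical to the mitochondrial gene over 783, 681, 678 and 294 bases. In mt-Nd4, 802 of 1304 windows (61.5%) were shared, in mt-Co1 586 of 1471 (39.8%), in mt-Nd2 55 of 964 and in mt-Nd5 29 of 1750. No window of mt-Rnr1, mt-Rnr2, mt-Nd1, mt-Nd6, mt-Cytb or mt-Atp8 was shared with an annotated nuclear transcript, yet mt-Atp8 had no row either. The last 43 of its bases overlap mt-Atp6, and sharing with unannotated sequence was not searched here. The 7 protein-coding genes that could be tested are mt-Nd1, mt-Nd2, mt-Nd4, mt-Nd5 and mt-Nd6 of complex I, mt-Cytb of complex III and mt-Co1 of complex IV. No mitochondrially encoded gene of the ATP synthase was measured.

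**Figure D1:**
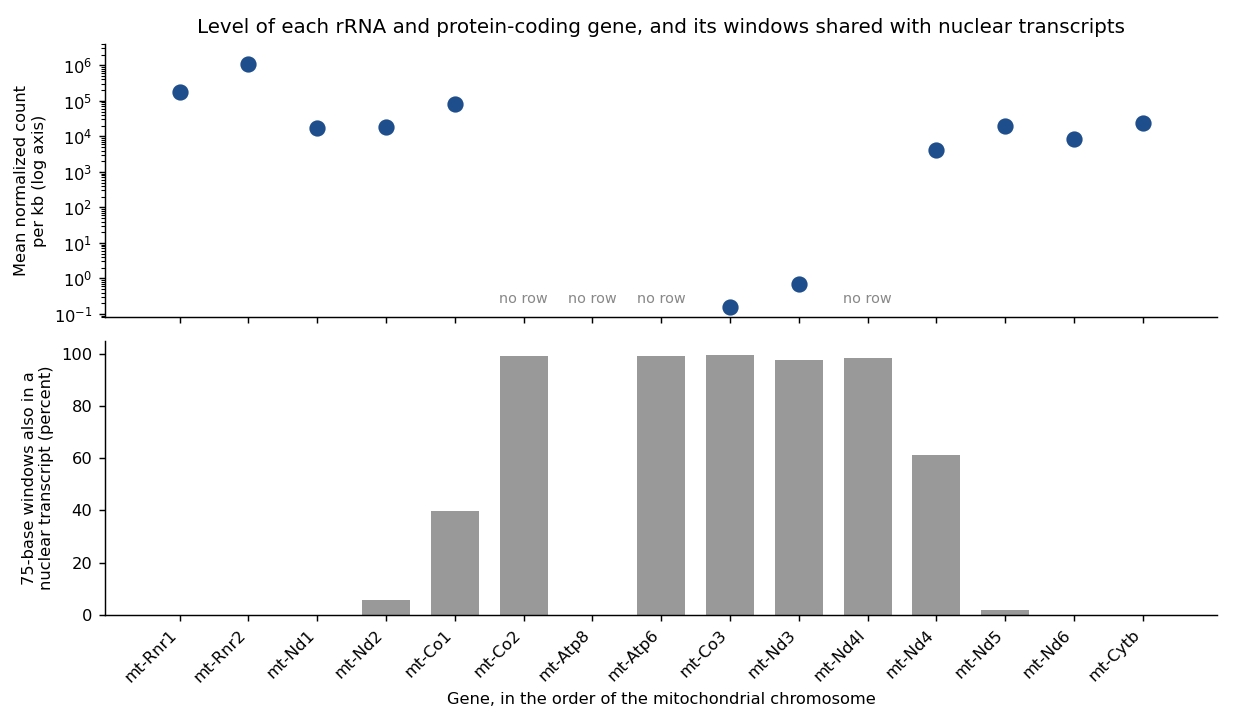
Upper panel, mean normalized count per kb of gene length over the 8 libraries (log axis) for the 2 rRNA and 13 protein-coding genes in chromosome order, with genes that have no row marked; lower panel, percent of each gene's 75-base windows found in an annotated nuclear transcript. The genes with more than 97% of windows shared have no row or lie below 1 count per kb, while mt-Atp8 has no row at 0% shared.

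On the nuclear side, Gm28438 had 25 and 39 normalized counts in WT on SD, 125 and 142 in Ad-Yap/Taz-KO on SD, 97 and 57 in WT on HFD, and 145 and 101 in Ad-Yap/Taz-KO on HFD. Gm10222 had 27 and 22, 141 and 109, 57 and 36, and 47 and 89 in the same order. Both were called higher in Ad-Yap/Taz-KO on SD (log2 fold change 2.06, SE 0.41, adjusted p = 0.0102, and 2.30, SE 0.47, adjusted p = 0.0117). Gm28437, Gm10925, Gm28439 and Gm29216 had 0 to 2. Because the copies share sequence with mt-Nd3 and mt-Nd4l, whether these counts come from the nuclear or the mitochondrial copy is uncertain.

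Mitochondrial genes took 9.51% and 9.56% of all normalized counts in WT on SD, 12.7% and 16% in Ad-Yap/Taz-KO on SD, 10.4% and 9.57% in WT on HFD, and 18.7% and 16% in Ad-Yap/Taz-KO on HFD. The 4 Ad-Yap/Taz-KO libraries all lay above the 4 WT libraries. With 13990000 to 22320000 reads on genes per library, as estimated from the low values, the 95% Wilson intervals reached at most 0.018 percentage points to either side, so counting error is small beside the spread between mice. The share of the 9 protein-coding genes was 0.974% and 0.908% in WT on SD, 1.44% and 1.73% in Ad-Yap/Taz-KO on SD, 1.08% and 0.973% in WT on HFD, and 1.86% and 2.06% in Ad-Yap/Taz-KO on HFD. The mean share in Ad-Yap/Taz-KO was 1.91 times that in WT on HFD (SD 0.20, n = 2 against 2) and 1.69 times on SD (SD 0.23). For the rRNA and tRNA genes together the ratios were 1.72 (SD 0.25) on HFD and 1.49 (SD 0.26) on SD. Shares of a total move with every other large gene. Scd1, a fatty acid desaturase, took 12.4% and 12.3% of the WT HFD libraries and 1.06% to 2.95% of the other 6. Without Scd1 in the total the protein-coding share was 1.71 times WT on HFD and 1.66 times on SD. In such bulk samples, more cells of a type and more RNA per cell cannot be told apart.

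**Figure D2:**
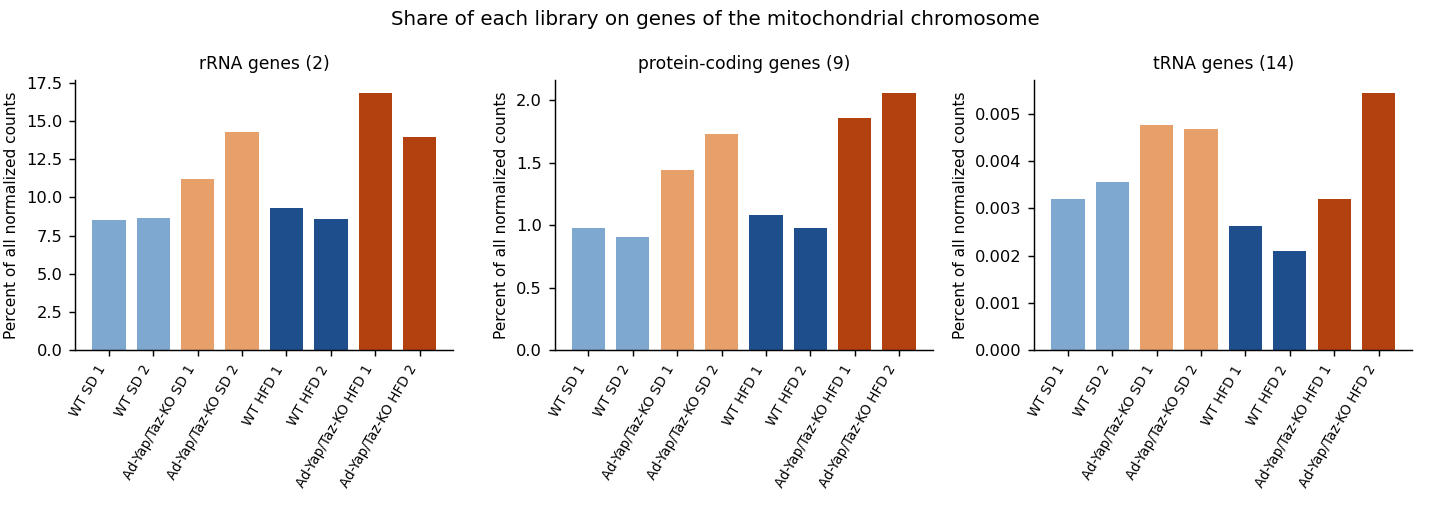
Share of all normalized counts (percent, linear axes from 0, a different scale in each panel) on the rRNA, protein-coding and tRNA genes of the mitochondrial chromosome, with 1 bar for each of the 8 libraries. The rRNA bars run from 8.53% to 16.9% and the protein-coding bars from 0.908% to 2.06%, and in both panels all Ad-Yap/Taz-KO bars stand above all WT bars.

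mt-Rnr2, the RNA of the large mitochondrial ribosomal subunit (chrM:1094-2675), made up 79.7% to 83.6% of all mitochondrial counts. It was the largest single gene in 6 libraries and second in the 2 WT HFD libraries. Its normalized counts were 1207562 and 1268543 in WT on SD, 1602318 and 2220951 in Ad-Yap/Taz-KO on SD, 1775537 and 1654462 in WT on HFD, and 2595027 and 1903568 in Ad-Yap/Taz-KO on HFD. mt-Rnr1, the RNA of the small subunit (chrM:70-1024), had 115373 and 103949, 127127 and 201859, 175229 and 135557, and 304682 and 178574. The groups did not overlap between genotypes on either diet, which held for 36.5% of all genes on HFD and 22.8% on SD in this direction, and neither gene was called. On HFD the log2 fold change of Ad-Yap/Taz-KO against WT was 0.37 (SE 0.53, adjusted p = 0.619) for mt-Rnr2 and 0.60 (SE 0.33, adjusted p = 0.178) for mt-Rnr1. The ratio of mt-Rnr2 to mt-Rnr1 ran from 8.52 to 12.6 and was lowest in Ad-Yap/Taz-KO HFD library 1, while library 2 of that group (10.7) lay within the range of the others. Ribosomal RNA was depleted before the libraries were made, and the sources used here do not say which rRNAs the depletion targets, so depletion and level cannot be told apart for these 2 genes. The 109 genes of the Ensembl biotype rRNA on other chromosomes summed to 3384 and 1600 normalized counts in WT on SD, 1428 and 2036 in Ad-Yap/Taz-KO on SD, 1889 and 1258 in WT on HFD, and 3083 and 1050 in Ad-Yap/Taz-KO on HFD. In each of the 4 groups the library with the higher sum also had more mt-Rnr1, and in 3 of them more mt-Rnr2, and the part of depletion in these values was not tested.

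Per kb of gene length and within each library, the order of the genes was mt-Rnr2, mt-Rnr1, mt-Co1, mt-Cytb, mt-Nd5, then mt-Nd2 and mt-Nd1, then mt-Nd6 and mt-Nd4. The means per kb over the 8 libraries were 1124000, 175700, 80750, 24080, 19470, 17820, 17750, 8644 and 4033 normalized counts. Every step held in 8 of 8 libraries except mt-Nd2 above mt-Nd1, which held in 5 of 8. The step from mt-Nd5 to mt-Nd2 was as small as 1.00-fold in one library. mt-Nd6, the only protein-coding gene on the minus strand, lay 1.89 to 2.54 times above mt-Nd4 per kb. Counted per 100 windows that are not shared with a nuclear transcript, however, mt-Nd4 (1107) lay above mt-Nd6 (1008) in 6 of 8 libraries, mt-Co1 reached 14100 against 19050 for mt-Rnr1, and mt-Nd5 lay above mt-Nd2 in 5 of 8. The place of mt-Nd4 in the order therefore depends on how the shared part is treated. mt-Co1 kept its place below mt-Rnr1 and above mt-Cytb in 8 of 8 libraries on both scales, although its distance to mt-Rnr1 narrowed to 1.05-fold in the closest library, and comparisons of a gene between groups do not use its length. The end of mt-Nd5 (chrM:13526-13565, + strand) is shown with the 14 bases, in capitals, that it shares with the end of mt-Nd6 on the other strand.
mt-Nd5 end: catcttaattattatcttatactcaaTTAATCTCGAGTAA
The strand setting of the authors' counting is not given in the sources used here. If strand was not used, reads of mt-Nd6 and of RNA opposite to it cannot be told apart.

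On HFD, 5 of the 7 tested protein-coding genes were called higher in Ad-Yap/Taz-KO than in WT, mt-Cytb, mt-Nd1, mt-Nd2, mt-Nd4 and mt-Nd6, and none was lower. No rRNA or tRNA gene was called. Of all 18800 genes tested, 17.1% were called higher in this comparison, so a call by itself is common here. The groups did not overlap for 7 of 7 protein-coding genes, all with Ad-Yap/Taz-KO above WT, against 36.5% of all genes. Their log2 fold changes had a median of 0.66 and ran from 0.44 to 0.91, beside a median of 0.09 over all genes.

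mt-Cytb (ENSMUSG00000064370, chrM:14145-15288, + strand), cytochrome b of complex III, had 25120 and 21798 normalized counts in the WT HFD libraries and 40107 and 40168 in those of Ad-Yap/Taz-KO. Its 2 Ad-Yap/Taz-KO values were nearly the same and both well above WT, with a log2 fold change of 0.78 (SE 0.20, adjusted p = 0.00928). mt-Nd4 (chrM:10167-11544), a complex I subunit of the proton-pumping membrane arm, had 5006 and 3185 in WT, against 5791 and 9659 in Ad-Yap/Taz-KO. The groups were apart, but the libraries of each group differed more from one another than the nearest values of the 2 groups did (log2 fold change 0.91, SE 0.28, adjusted p = 0.0237). mt-Nd6 (chrM:13552-14070, - strand), also of complex I, had 3863 and 2334 in WT, against 4490 and 6884 in Ad-Yap/Taz-KO, with 0.89 (SE 0.28, adjusted p = 0.0282) on the log2 scale. It showed the same spread within each group as mt-Nd4.

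The complex I subunit mt-Nd1 (chrM:2751-3707) had 16792 and 12053 normalized counts in the WT HFD libraries and 20410 and 24781 in those of Ad-Yap/Taz-KO, a log2 fold change of 0.66 (SE 0.21, adjusted p = 0.0300). mt-Nd2 (chrM:3914-4951), of complex I as well, had 16639 and 14847 in WT, against 22222 and 26682 in Ad-Yap/Taz-KO, a log2 fold change of 0.63 (SE 0.20, adjusted p = 0.0285). In both genes the lower Ad-Yap/Taz-KO library exceeded the higher WT library. The other 2 protein-coding genes lay in the same direction but were not called. mt-Nd5 (chrM:11742-13565, complex I) had 35060 and 28866 in WT, against 43363 and 48702 in Ad-Yap/Taz-KO (log2 fold change 0.53, SE 0.20, adjusted p = 0.0598). mt-Co1 (chrM:5328-6872), the catalytic subunit of complex IV, had 124687 and 119473 in WT, against 182795 and 149726 in Ad-Yap/Taz-KO (0.44, SE 0.24, adjusted p = 0.178).

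**Figure D3:**
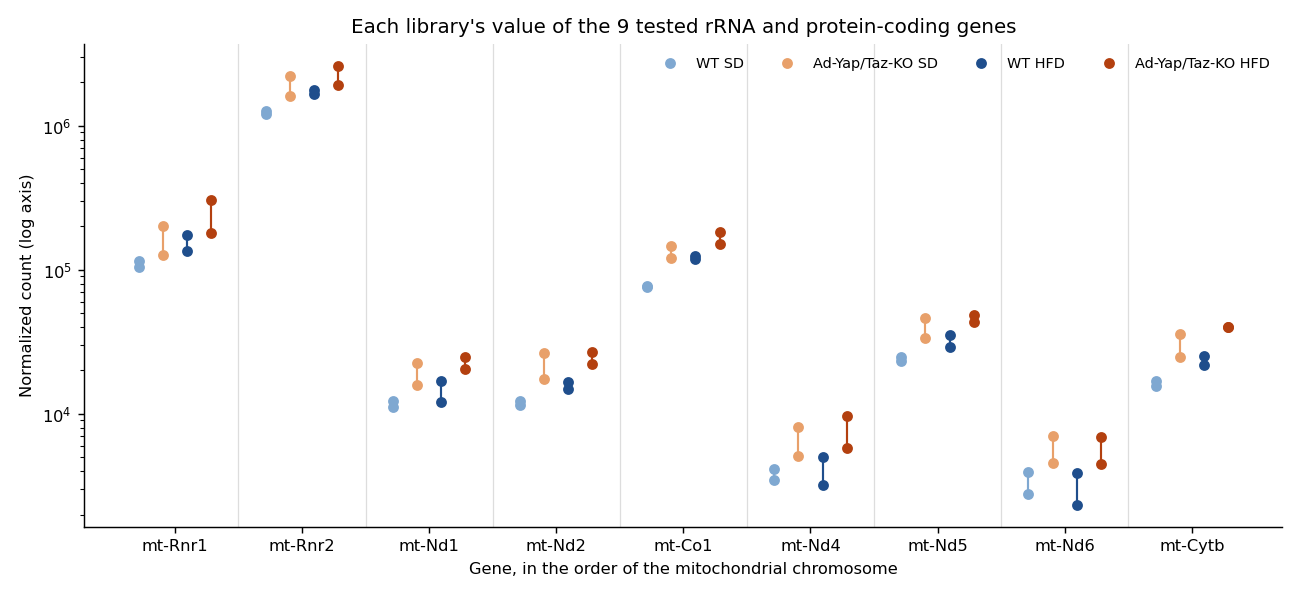
Normalized count (log axis) of the 9 tested rRNA and protein-coding genes, in chromosome order, with 1 point per library and a line joining the 2 libraries of a group. For every gene shown, both Ad-Yap/Taz-KO libraries lie above both WT libraries of the same diet.

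These 5 calls rested on few libraries. Without WT HFD library 2, none of the mitochondrial genes was called, without Ad-Yap/Taz-KO HFD library 2 only mt-Cytb and mt-Rnr1 were, and none was when the pair of WT HFD libraries entered as their mean. With a common total for each library 9 members were called, all higher. More of all 18800 genes were then called higher as well, 4617 against 3213 on the authors' scale. The median of all genes moved from 0.09 to 0.47, while that of the 7 protein-coding genes moved from 0.66 to 1.05.

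On SD, mt-Cytb and mt-Nd2 were called higher in Ad-Yap/Taz-KO, 2 of the 7 protein-coding genes, where 3.21% of all tested genes were called higher. mt-Cytb had 16794 and 15634 normalized counts in WT on SD, against 24751 and 36017 in Ad-Yap/Taz-KO on SD (log2 fold change 0.88, SE 0.20, adjusted p = 0.0222). mt-Nd2 had 11493 and 12347 in WT, against 17486 and 26224 in Ad-Yap/Taz-KO (0.85, SE 0.20, adjusted p = 0.0303). In both, Ad-Yap/Taz-KO library 2 was the highest of the 4 and library 1 was still above both WT libraries. The other 5 protein-coding genes had log2 fold changes of 0.69 to 0.81 with adjusted p of 0.0725 to 0.176, and an unadjusted p under 0.05 each, which 17.0% of all genes had. For mt-Co1 the counts were 77474 and 75428 in WT against 121444 and 146992. For mt-Nd5 they were 24907 and 23322 against 33712 and 46104. For mt-Nd1 they were 12203 and 11234 against 15850 and 22595. mt-Nd4 had 4146 and 3495 against 5085 and 8094, and mt-Nd6 had 3960 and 2778 against 4558 and 7022. The groups were apart in 7 of 7 protein-coding genes, against 22.8% of all genes higher without overlap. The 2 calls were lost without any 1 of 5 libraries: either WT SD library, either WT HFD library (which enter through the shared spread) or Ad-Yap/Taz-KO SD library 2.

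The genotype was also compared averaged over both diets, a contrast chosen after seeing the data. All 7 tested protein-coding genes were then called higher in Ad-Yap/Taz-KO, against 10.5% of all genes. Their log2 fold changes were 0.62 for mt-Co1 and mt-Nd5, 0.68 for mt-Nd1, 0.74 for mt-Nd2 and 0.83 for mt-Nd4, mt-Nd6 and mt-Cytb, with adjusted p from 0.00092 (mt-Cytb) to 0.0187 (mt-Co1). mt-Rnr1 (0.57, SE 0.23, adjusted p = 0.0967) and mt-Rnr2 (0.49, SE 0.38, adjusted p = 0.386) were not called. In this contrast 2 genes, mt-Cytb and mt-Nd2, remained without WT HFD library 2, and 4 without Ad-Yap/Taz-KO SD library 2 or without WT SD library 2. The difference between the genotype effects on the 2 diets was tested as an interaction. No mitochondrial gene was called and none had an unadjusted p under 0.05, where 17.4% of all genes were called and 33.7% had such a p. For the 7 protein-coding genes the interaction ran from -0.37 (mt-Co1, SE 0.34) to 0.15 (mt-Nd4, SE 0.39) on the log2 scale. Its direction depends on the scaling. The median of the 7 was -0.10 beside 0.10 for all genes, and 0.33 beside 0.52 with the same total for each library. With that total the 7 ran from 0.06 to 0.58, with quantile normalization from 0.04 to 0.65 and with upper-quartile scaling from -0.24 to 0.28.

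**Figure D4:**
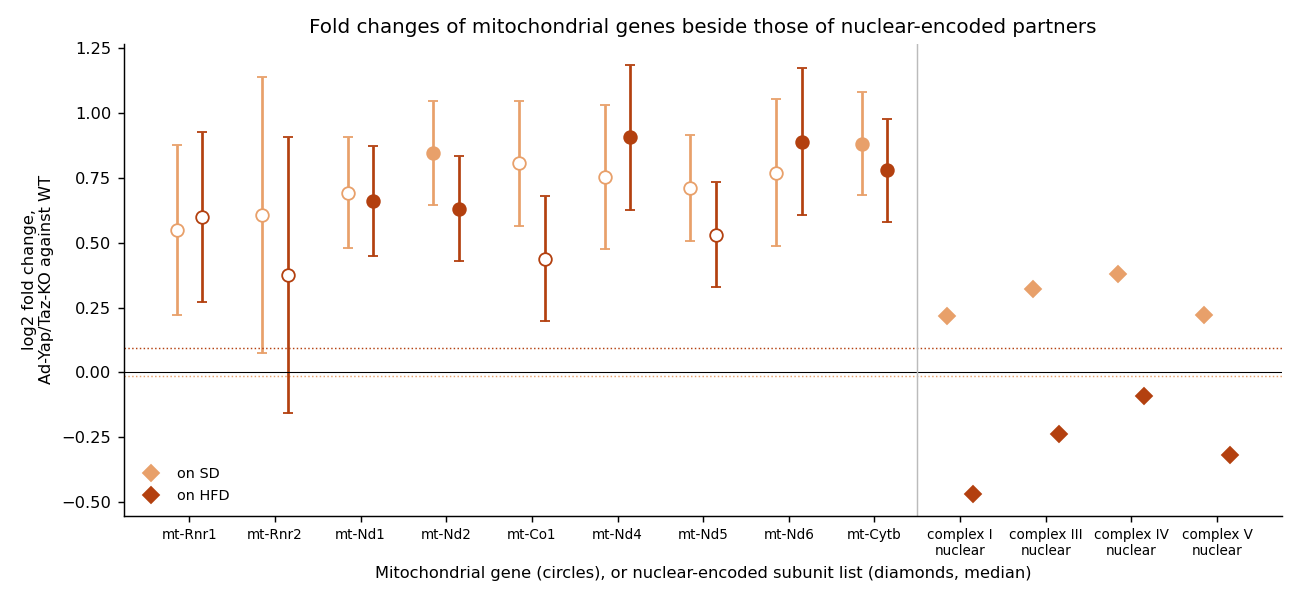
Log2 fold change of Ad-Yap/Taz-KO against WT on SD (light) and on HFD (dark), with standard errors, for the 9 tested rRNA and protein-coding genes (circles, filled where called), beside the median log2 fold change of the nuclear-encoded subunits of complexes I, III, IV and V (diamonds) and of all genes (dotted lines). All circles are above 0 on both diets, while the diamonds, on the authors' scale, are above 0 on SD and below 0 on HFD.

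In WT mice no mitochondrial gene was called between HFD and SD by limma, where 18.0% of all genes were called. An unadjusted p under 0.05 was seen for 3 of the 15 tested, below the 35.2% of all genes. These 3 were mt-Co1 (log2 fold change 0.67, SE 0.24, adjusted p = 0.0650), mt-Cytb (0.53, SE 0.20, adjusted p = 0.0775) and mt-Tc (1.07, SE 0.41, adjusted p = 0.0832), each with both HFD libraries above both SD libraries, which held for 31.4% of all genes. mt-Nd4 (0.07, SE 0.28) and mt-Nd6 (-0.14, SE 0.28) had values near 0. mt-Co1 was called when any 1 Ad-Yap/Taz-KO library was left out. The direction of the 7 protein-coding genes in this comparison depends on the scale: their median was 0.40 beside -0.08 for all genes, and -0.01 beside -0.48 for all genes when libraries were scaled to the same total. In Ad-Yap/Taz-KO mice, HFD against SD gave no called mitochondrial gene and none with an unadjusted p under 0.05, where 1.07% of all genes were called and 15.5% had such a p. Only mt-Cytb and mt-Co1 had both HFD libraries above both SD libraries among the 7 protein-coding genes, against 22.7% of all genes.

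The make-up of the mitochondrial mRNA varied within groups as well as between them. Of the counts on protein-coding mitochondrial genes, mt-Co1 took 48.8% to 59.0%, mt-Nd5 13.6% to 16.5%, mt-Cytb 10.8% to 13.1%, mt-Nd2 6.96% to 8.95%, mt-Nd1 5.95% to 8.08%, mt-Nd4 1.57% to 3.15% and mt-Nd6 1.15% to 2.62%. The lowest and the highest ratio of mt-Co1 to mt-Nd4 were 15.5 in Ad-Yap/Taz-KO HFD library 2 and 37.5 in WT HFD library 2. Within Ad-Yap/Taz-KO on HFD, library 2 against library 1 had log2 differences of -0.77 for mt-Rnr1, -0.45 for mt-Rnr2 and -0.29 for mt-Co1, but 0.74 for mt-Nd4 and 0.62 for mt-Nd6. One library was thus higher in rRNA and mt-Co1 and the other in the complex I genes. Within WT on HFD, library 2 was below library 1 in all 9 genes, by -0.73 in mt-Nd6, -0.65 in mt-Nd4 and -0.48 in mt-Nd1 but -0.06 in mt-Co1. This pair was otherwise close, with a median absolute log2 difference of 0.06 over 3003 nuclear protein-coding genes with a mean of at least 1000, against 0.28 over the 7 mitochondrial ones. In Ad-Yap/Taz-KO on SD, library 2 was above library 1 in all 9 genes, with 0.54 over the 7 mitochondrial genes against 0.22 over the nuclear ones. The other 2 groups did not show such a gap, with 0.10 against 0.14 in WT on SD and 0.28 against 0.24 in Ad-Yap/Taz-KO on HFD.

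**Figure D5:**
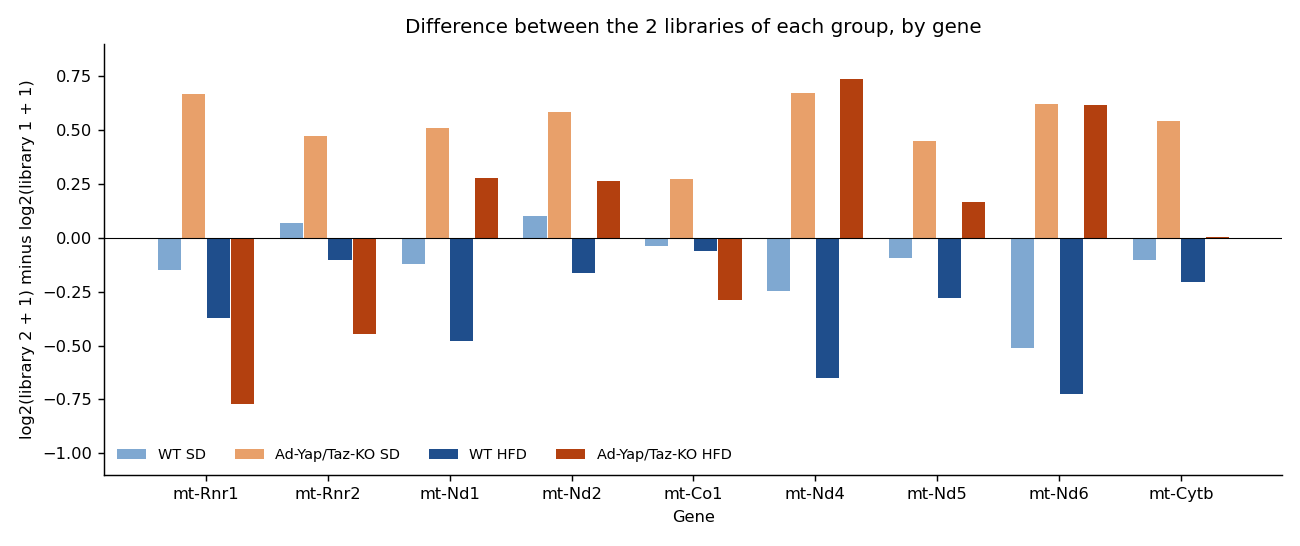
Log2 difference between library 2 and library 1 of each group, with 1 added to each normalized count, for the 9 tested rRNA and protein-coding genes (bars from 0). In WT on HFD all bars point down, in Ad-Yap/Taz-KO on SD all point up, and in Ad-Yap/Taz-KO on HFD mt-Rnr1, mt-Rnr2 and mt-Co1 point down and the rest up.

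The 14 tRNA genes with a row together took 0.0021% to 0.0054% of all counts, and 6 of them passed the filter on low values (a mean of at least 5). mt-Tp, which encodes the proline tRNA, held 74.8% of all tRNA counts, and with mt-Tc, the cysteine tRNA, 90.8%. Their sequences (mt-Tp, chrM:15356-15422, and mt-Tc, chrM:5192-5257, both - strand) are shown with the anticodon in capitals because nearly all tRNA counts are on these 2 genes.
mt-Tp: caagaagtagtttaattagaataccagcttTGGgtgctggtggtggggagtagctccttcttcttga
mt-Tc: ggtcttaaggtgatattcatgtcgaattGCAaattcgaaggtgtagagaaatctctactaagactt
Both tRNAs are shorter than the longest read, and reads that touched a second gene were left out by the authors, so a value counts only reads that touched no annotated neighbour. mt-Tp is the last gene before the noncoding control region, and a gap of 32 bases separates mt-Tc from mt-Tn. mt-Tf, at the other side of the control region, was nonetheless at 0 in 6 libraries and at 5 and 7 in WT on HFD. The 12 tRNA genes other than mt-Tp and mt-Tc had 0 to 28 normalized counts in a library, and the 8 on the plus strand at most 21.

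mt-Tp had 385 and 440 normalized counts in WT on SD, 571 and 632 in Ad-Yap/Taz-KO on SD, 376 and 306 in WT on HFD, and 332 and 647 in Ad-Yap/Taz-KO on HFD. The genotypes were apart on SD (log2 fold change 0.54, SE 0.27, adjusted p = 0.335) and overlapped on HFD (0.45, SE 0.27, adjusted p = 0.222). mt-Tc had 35 and 68, 90 and 123, 123 and 87, and 160 and 107 in the same order, with 1.09 (SE 0.41, adjusted p = 0.183) on SD and 0.34 (SE 0.41, adjusted p = 0.558) on HFD. No tRNA gene was called in any of the 6 contrasts. Without the filter on low values, mt-Tf was called between the genotypes on HFD, in HFD against SD in WT and in the comparison averaged over the diets, at values of 7 or less.

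On the authors' scale the nuclear-encoded partners of these proteins had mostly lower values in Ad-Yap/Taz-KO on HFD, with a negative log2 fold change in 63 of 72. This direction depends on the scale: with the same total for each library 34 of 72 were negative, with a median of 0.01 and 1 call, higher (Ndufa6), and with the same total outside the mitochondrial chromosome 21 were negative, with a median of 0.13 and 2 calls, both higher. Among these subunits on the authors' scale of complexes I, III, IV and V, 6 were called lower and 0 higher in Ad-Yap/Taz-KO on HFD, where 15.1% of all genes were called lower. Their median log2 fold change was -0.38 beside 0.09 for all genes. The called subunit with the largest fall in each complex was Ndufb7 of complex I (-1.001, SE 0.25, adjusted p = 0.00832), Cox6a1 of complex IV (-0.61, SE 0.21, adjusted p = 0.0397) and Atp5e of complex V (-0.72, SE 0.18, adjusted p = 0.00942), and no subunit of complex III was called. Ndufs5 of complex I (-1.38, SE 0.50, adjusted p = 0.0506) and Cox8a of complex IV (-0.63, SE 0.23, adjusted p = 0.0544) had larger values below 0 but were not called. Ndufb7 had 383 and 336 normalized counts in the WT HFD libraries and 196 and 163 in those of Ad-Yap/Taz-KO. On SD none of the 72 was called, beside 4.71% of all genes, and 10 (13.9%) had an unadjusted p under 0.05, beside 17.0% of all genes. The median was 0.30 beside -0.01, between 0.25 and 0.33 under the other scalings. Without Ad-Yap/Taz-KO HFD library 1 the calls on HFD rose to 26, and without WT HFD library 1 they fell to 0.

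The ratio of the summed mitochondrial to the summed nuclear-encoded counts of complex I was 2.41 and 2.25 in WT on SD, 3.09 and 3.50 in Ad-Yap/Taz-KO on SD, 2.61 and 2.10 in WT on HFD, and 3.69 and 6.31 in Ad-Yap/Taz-KO on HFD. This ratio does not depend on the size factor of a library. For complex III (mt-Cytb) it was 1.75 and 1.58, 2.03 and 2.93, 2.28 and 1.93, and 3.61 and 4.93. For complex IV (mt-Co1) it was 7.84 and 8.11, 11.4 and 11.2, 10.1 and 9.98, and 16 and 18.8. In each of the 3 complexes both Ad-Yap/Taz-KO libraries lay above both WT libraries of the same diet. Genes of unequal length are summed here, so only the change of a ratio between libraries can be read, not its size.

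The proteins that transcribe, process and copy the mitochondrial genome are nuclear-encoded as well. Of 10 tested transcription genes, 1 was called lower, beside 15.1% of all genes, between the genotypes on HFD, Mterf3 (named after its value was seen), a member of the family of mitochondrial transcription terminators, which fell with a log2 fold change of -0.85 (SE 0.27, adjusted p = 0.0304). The call was lost without either WT HFD library, without Ad-Yap/Taz-KO HFD library 1 and with the same total for each library. The list had a median of -0.49, of -0.11 with the same total and of 0.01 with the same total outside the mitochondrial chromosome, where 6 of 10 were positive. Polrmt, the mitochondrial RNA polymerase, had 435 and 372 normalized counts in the WT HFD libraries and 313 and 268 in those of Ad-Yap/Taz-KO (-0.47, SE 0.21, adjusted p = 0.0959). Tfam, which packages mitochondrial DNA and starts its transcription, had 451 and 366 against 323 and 301 (-0.38, SE 0.21, adjusted p = 0.186). Both had lower values in both Ad-Yap/Taz-KO libraries on the authors' scale but were not called. With the same total Polrmt was at -0.09 and Tfam at 0.00 (log2 fold change), and with the same total outside the mitochondrial chromosome at 0.04 and 0.13.

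Of 24 genes for processing, polyadenylation and decay of mitochondrial RNA, 7 were called lower and 0 higher on HFD, beside 15.1% of all genes called lower, with a median of -0.22. Without either WT HFD library 3 were called lower, and without Ad-Yap/Taz-KO HFD library 2 there were 4. With the same total for each library 3 were called lower and 1 higher and the median was 0.16, so the direction of the list depends on the scale. Lactb2, a mitochondrial RNA endonuclease, had 1500 and 1489 normalized counts in the WT HFD libraries and 621 and 442 in those of Ad-Yap/Taz-KO, a fall of 1.51 on the log2 scale (-1.51, SE 0.21, adjusted p = 0.000178). Rexo2, which degrades short RNA fragments, had 2741 and 2700 against 1739 and 939 (-1.09, SE 0.24, adjusted p = 0.00352). Ptcd1, a pentatricopeptide repeat protein of mitochondrial RNA metabolism, had 380 and 426 against 190 and 197 (-1.05, SE 0.21, adjusted p = 0.00194). All 3 were clearly apart between the groups, and remained called without either WT HFD library and with the same total for each library, while with the same total outside the mitochondrial chromosome only Lactb2 did. Lrpprc, which stabilizes mitochondrial mRNAs, had 1033 and 1125 against 1210 and 822 and overlapped (-0.11, SE 0.19, adjusted p = 0.683). On SD no member of either list was called, beside 4.71% of all genes, and 0 of 10 and 4 of 24 had an unadjusted p under 0.05, near or below the 17.0% of all genes. Lrpprc had 752 and 846 in WT, against 1152 and 1169 in Ad-Yap/Taz-KO (0.54, SE 0.19, adjusted p = 0.154).

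Of 11 genes for replication and packaging of mitochondrial DNA, 1 rose on HFD, beside 17.1% of all genes called higher, Rnaseh1, which removes RNA from RNA-DNA hybrids, with 44 and 53 normalized counts in WT, against 116 and 102 in Ad-Yap/Taz-KO (1.16, SE 0.38, adjusted p = 0.0321). This call was lost without any 1 of the 4 HFD libraries. On SD, where 4.71% of all genes were called in either direction, Primpol rose (1.04, SE 0.26, adjusted p = 0.0411) and Polg2 fell (-0.97, SE 0.20, adjusted p = 0.0116). Primpol was not called without either Ad-Yap/Taz-KO SD library, WT SD library 1 or either WT HFD library, nor with the replicate block, and Polg2 was not called without Ad-Yap/Taz-KO SD library 1 or WT SD library 2. Neither was called with no filter on low values or in a fit of the 2 SD groups alone. Of 8 nuclear regulators, 4 rose on HFD and none fell, beside 17.1% of all genes called higher: Perm1, a muscle and heart gene downstream of the PGC-1 co-activators, Pprc1, a PGC-1-related co-activator, and the transcription factor genes Nrf1 and Gabpb1 (the last 2 named after their values were seen). Without either WT HFD library or Ad-Yap/Taz-KO HFD library 2, only Perm1 and Pprc1 were called. Perm1 had 32 and 29 in the WT HFD libraries and 292 and 289 in those of Ad-Yap/Taz-KO (3.21, SE 0.34, adjusted p = 2.1e-05), and also rose on SD, from 64 and 99 to 287 and 182 (1.51, SE 0.34, adjusted p = 0.0231), a call that was lost without either WT SD library, without Ad-Yap/Taz-KO SD library 1, with no filter on low values and in a fit of the 2 SD groups alone. Pprc1 had 921 and 960 against 1497 and 1857 on HFD (0.83, SE 0.17, adjusted p = 0.00249). Ppargc1a, the gene of PGC-1 alpha, had 187 and 179 against 182 and 150 on HFD and was not called (-0.15, SE 0.33, adjusted p = 0.766).

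Between HFD and SD in WT, 8.74% of all genes were called higher and 9.22% lower. Of the transcription genes Tfam and Tefm, an elongation factor of the mitochondrial RNA polymerase, were called higher, and 4 of 24 processing and decay genes were. With the same total for each library neither transcription gene was called, and of the processing genes Lactb2 alone was called higher. Tefm went from 37 and 54 normalized counts on SD to 144 and 140 on HFD (log2 fold change 1.65, SE 0.42, adjusted p = 0.0178), Tfam from 246 and 262 to 451 and 366 (0.68, SE 0.21, adjusted p = 0.0420), and Lactb2 from 538 and 572 to 1500 and 1489 (1.43, SE 0.21, adjusted p = 0.00120). Of the replication genes, Primpol, a primase-polymerase, rose from 131 and 215 to 547 and 569 (1.73, SE 0.26, adjusted p = 0.00146), and Polg2, the accessory subunit of the mitochondrial DNA polymerase, fell from 949 and 1261 to 424 and 375 (-1.45, SE 0.20, adjusted p = 0.000728). Perm1 (-1.36, SE 0.34, adjusted p = 0.0173) and Gabpb1 (-0.87, SE 0.20, adjusted p = 0.0106) were lower on HFD. Of these, Lactb2, Primpol and Polg2 remained called without any 1 WT library, whereas Tfam, Tefm, Perm1 and Gabpb1 did not. Of the nuclear-encoded subunits 7 of 72 were called higher and none lower, with a median of 0.30, but scaling to a common total left only 1 call, a lower one, and a median of -0.11. Without any 1 WT library none of the 72 was called.

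The labels were checked with the targeted genes. Wwtr1, the gene of TAZ, had 4743 to 7121 normalized counts in WT and 1957 to 2707 in Ad-Yap/Taz-KO libraries, and was called lower on HFD (-1.56, SE 0.18, adjusted p = 3.1e-05) and on SD (-1.24, SE 0.18, adjusted p = 0.000969). Yap1 had 2333 to 2776 in WT and 1549 to 2068 in Ad-Yap/Taz-KO, and was called lower on SD (-0.71, SE 0.16, adjusted p = 0.0238) but not on HFD (-0.42, SE 0.16, adjusted p = 0.0591). Markers of other cells moved with the genotype. For the counts of called markers that follow, 17.1% of all genes were called higher and 15.1% lower on HFD. On SD 3.21% were called higher and 4.71% in either direction. The 9 macrophage markers summed to 3191 to 3412 in WT on SD, 9185 to 15244 in Ad-Yap/Taz-KO on SD, 1577 to 1697 in WT on HFD and 20206 to 21719 in Ad-Yap/Taz-KO on HFD, and all 9 were called higher in Ad-Yap/Taz-KO on both diets. Of 6 fibroblast or progenitor markers 4 were called higher on HFD and none on SD. The 5 endothelial markers summed to 20704 to 25323 in WT on SD, 10836 to 19310 in Ad-Yap/Taz-KO on SD, 13042 to 13303 in WT on HFD and 16683 to 25860 in Ad-Yap/Taz-KO on HFD. On SD all 5 had negative log2 fold changes, 4 of them with an unadjusted p under 0.05, which 17.0% of all genes had, and 0 called. On HFD all 5 were positive and 1 was called higher. The 4 mesothelial markers summed to 107 to 192 in WT and 278 to 640 in Ad-Yap/Taz-KO libraries, but on HFD this was Wt1 (46 and 54 in WT against 310 and 531), while 3 of the 4 had negative log2 fold changes, with a median of -1.14, 1 called higher and 1 lower. The 4 lymphocyte markers summed to 7 to 59 in WT and 49 to 82 in Ad-Yap/Taz-KO. The 4 brown adipocyte markers summed to 59 to 112 in WT and 346 to 385 in Ad-Yap/Taz-KO on SD. Their sums on HFD were 92 to 176 in WT and 374 to 697 in Ad-Yap/Taz-KO. Of these markers 2 were called higher on SD, where the other 2 had negative log2 fold changes. All 4 were positive on HFD and 1 was called higher. Cidea had 3 and 12 in WT on SD against 76 and 86 in Ad-Yap/Taz-KO on SD. Cox8b had 71 and 9 against 236 and 266 there, while Ucp1 was at 3 to 55 in every library. The 4 muscle markers summed to 1390 to 2229 in Ad-Yap/Taz-KO on SD, nearly all of it Acta1, and to 122 to 467 in the other 6 libraries. The 8 white adipocyte markers were present throughout, summed to 357800 to 365550 in WT on HFD and 91446 to 182534 in Ad-Yap/Taz-KO on HFD, and 7 of them were called lower there. The lowest white adipocyte sum was that of Ad-Yap/Taz-KO HFD library 2, which also had the highest mitochondrial protein-coding share and the lowest nuclear-encoded sum of each complex. On SD no white adipocyte marker was called, and Ad-Yap/Taz-KO SD library 2 had both the highest white adipocyte sum of that diet (233042, against 161654 to 205297 in the other 3) and its highest mitochondrial protein-coding share. The part of these cells in the mitochondrial values was not tested.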

How the data were processed

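RNA of white adipocytes isolated from epididymal fat was sequenced in 8 libraries. Per the study's methods, ribosomal RNA was depleted with RiboGone before the SMARTer Stranded Total RNA kit, single-end reads of at most 75 bases were trimmed with Reaper, aligned to mm10 (GRCm38) with STAR 2.5.2b and counted per gene with featureCounts 1.5.1, and the counting left out any read with more than 1 aligned place or touching more than 1 gene. The strand setting of the counting is not given in the sources used here. The authors deposited normalized counts, a score in which each library's gene counts were divided by 1 size factor (DESeq2 1.14.1) and rounded to whole numbers. No sample column of the table was left unused, and the annotation columns supplied positions and biotypes.

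From these values, limma 3.58.1 (R 4.3.3) was fitted to log2(normalized count + 1) of the 18800 of 30387 genes with a mean of at least 5, with 4 group means in 1 fit, a mean-variance trend, 4 residual and 8.59 prior degrees of freedom. Calls needed an adjusted p (Benjamini-Hochberg, over all tested genes) of 0.05 or less together with an absolute log2 fold change of 0.59 or more, as in the study's methods. The script was tested on simulated data. All p-values and adjusted p-values are from limma. No count test was run, because the values are not counts. With 2 libraries a group, an exact permutation test could not go below p = 0.333. Shares are percentages of each library's column total with Wilson 95% intervals, which cover counting error only. The value of 1 read was estimated from the steps between the low values of each library, and a count of 0 allows up to 3 reads.

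Sequences, windows of 75 bases (the longest read) and positions of the mitochondrial genes were read from the GENCODE vM21 transcripts and annotation (GRCm38), and the positions of all 25 rows matched it. Sharing was searched on both strands in transcripts only, because no genome sequence was used here. Every mitochondrial protein-coding and rRNA gene was named, tRNA genes were named at a mean of at least 50 or where called, Polrmt, Tfam, Lrpprc and Ppargc1a were always named, and so were the 3 called machinery genes with the largest rise and the largest fall in each of 2 comparisons (between the genotypes on HFD, and HFD against SD in WT) and, per complex, the called nuclear-encoded subunit with the largest change in the first of these. The members and lists were chosen with earlier results of these data known. The comparison averaged over the diets and the shares without Scd1 were added after seeing the data. The replicate numbers did not pair the libraries: the deviations of same-numbered libraries correlated at -0.300 to 0.108 over 12093 genes.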

Additional observations from a re-analysis of the deposited data

How the results depend on the processing

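Each comparison was repeated under 11 or 12 other settings and without each library in turn. The calls over all 18800 genes move with the setting too. Between the genotypes on HFD, 3213 genes were called higher in the main fit and 2538 with quantile normalization. With the same total there were 4617, and with the same total outside the mitochondrial chromosome 5484. Between the genotypes on HFD, 5 mitochondrial genes were called. The count was 0 with the WT HFD pair merged, 2 with no filter on low values, 2 in a fit of only the 2 groups, 8 with quantile normalization, 9 scaled to the same total or to the same total outside the mitochondrial chromosome, and 0 to 7 without 1 library. On SD (2 called) it was 0 with the WT HFD pair merged, 0 with no filter, 0 in the fit of only the 2 groups, 4 with quantile normalization and 0 to 4 without 1 library. For HFD against SD in WT (0 called) it was 1 with a mean of at least 50, with no filter, in the fit of only the 2 groups and with quantile normalization, and 0 to 1 without 1 library. The interaction (0 called) had 1 with quantile normalization, mt-Rnr2, where the rank of the highest gene decides its value, and HFD against SD in Ad-Yap/Taz-KO stayed at 0 in every setting. Averaged over the diets (7 called) the count was within 1.5 times in 16 of 19 settings and 2 to 8 without 1 library. No log2 fold change of the 9 rRNA and protein-coding genes between genotypes changed its sign in 531 alternative values. Most of these settings could not change a sign. The genotypes did not overlap in any of these genes on either diet, so leaving out 1 library keeps the sign. Only another scaling could reverse it, and with quantile normalization mt-Rnr2 on SD went from 0.61 to 0.00. A kept sign is not a kept call, and the calls varied as given above. The ratios of shares moved by less than 1 SD in 7 of 7 alternatives each. Without 1 library this is fixed in advance, because a mean of 2 libraries then moves by less than their SD. These ratios were 1.81 to 2.01 (protein-coding) and 1.56 to 1.89 (rRNA and tRNA) on HFD, and 1.53 to 1.84 and 1.30 to 1.67 on SD. The other totals left out mt-Rnr2, left out Scd1 or held protein-coding genes only. With them the ratios were 1.71 to 2.10 (protein-coding) and 1.55 to 1.90 (rRNA and tRNA) on HFD, and 1.66 to 1.76 and 1.46 to 1.55 on SD.

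The replicate numbers share only a number. With the replicate block the calls on SD fell from 2 to 1 (mt-Nd2), those on HFD were 4, and the transcription list in HFD against SD in WT fell from 2 to 1. Deviations of same-numbered libraries correlated at -0.300 to 0.108 between groups.

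For the lists the calls between the genotypes on HFD were as follows. Transcription (1) had 0 with the WT HFD pair merged, with no filter, in the fit of only the 2 groups and with total, non-mitochondrial total and upper-quartile scaling, 2 with quantile normalization and 0 to 1 without 1 library. Processing and decay (7) had 3 with the WT HFD pair merged, 3 scaled to the non-mitochondrial total (2 of them higher), 4 to the same total (1 higher) and 3 to 9 without 1 library. Replication (1) had 0 with the WT HFD pair merged and with no filter, 2 with no fold minimum, quantile or upper-quartile scaling, 3 with either total and 0 to 2 without 1 library. Nuclear regulators (4, all higher) had a median log2 fold change of 0.50, and of 0.37 to 0.62 without 1 HFD library. Fewer were called with the WT HFD pair merged and without some single libraries. Without Ad-Yap/Taz-KO HFD library 1 the calls were not all higher, as Esrra was called lower. Nuclear-encoded subunits (6) had 0 with the WT HFD pair merged, 10 with no fold minimum, 2 scaled to the non-mitochondrial total and 1 to the same total (all higher, whereas the 6 are lower) and 0 to 26 without 1 library. In HFD against SD in WT, transcription (2) had 0 with the WT HFD pair merged and with no filter, 1 with every scaling (with either total a lower one, Mrpl12) and 0 to 2 without 1 library. Processing and decay (4) had 1 with the WT HFD pair merged and with no filter, 2 with quantile normalization and with either total, and 1 to 6 without 1 library. Replication stayed at 2 in every setting. Nuclear regulators (2) had 0 with the WT HFD pair merged, 4 with either total and 0 to 3 without 1 library. Nuclear-encoded subunits (7) had 0 with the WT HFD pair merged, 2 with no filter or upper-quartile scaling, 13 in the fit of only the 2 groups, 1 with quantile normalization and with either total (lower with either total), and 0 to 11 without 1 library. On SD, replication (2) had 0 with no filter and in the fit of only the 2 groups and 1 with the replicate block, with the WT HFD pair merged and with a pseudocount of 0.1, and 0 to 2 without 1 library, and nuclear regulators (1) had 0 with no filter and in the fit of only the 2 groups and 0 to 1 without 1 library. The causes were not tested.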
